A study of Mus musculus with 6 samples.

Results

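The mir-297, mir-466, mir-467 and mir-669 precursors are a rodent family of short hairpins, most of which lie side by side in an intron of the Polycomb gene Sfmbt2. They were taken from the table of 855 miRNA precursors by name alone, as each row named mir-297, mir-466, mir-467 or mir-669 followed by a letter, with no use of measured values. This gave 81 rows: 6 of the mir-297, 28 of the mir-466, 17 of the mir-467 and 30 of the mir-669 subfamily. Small RNA-seq was done on whole retinas from 4-week-old mice of a mixed C57BL/6J - SJL background that all carried floxed Dicer1 alleles. The control mice were Dicerfl/fl, iCre75-, and the cKO mice were Dicerfl/fl, iCre75+ littermates, in which Dicer1 is deleted in rod photoreceptors. Each genotype had 3 libraries, described as biological replicates, each from a pool of 6 retinas. Which animals went into each pool is not stated in the labels, so the tests measure the spread between pools. The retina keeps many cell types besides rods, in which the Cre transgene is not meant to act, and all of them are in these libraries.

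Dicer is the RNase that cuts miRNA hairpins to their mature form, and the mature strand finds its target RNAs mainly through its seed, bases 2 to 8. Sfmbt2 is imprinted and expressed from the paternal allele in the early embryo and the placenta, and its intronic cluster is known for its role in placental growth. The cluster arose by repeated copying in rodents, so its hairpins resemble each other closely, and many consist largely of alternating UG or AC bases. A read from such a hairpin can fit several copies at once.

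The sequences at hand show this repeat character. Mature sequences were found in the RefSeq table (GRCm38.p6) for 8 members. They are shown because their repeats bear on what a row of this family counts, with the seed in capitals:
miR-466q: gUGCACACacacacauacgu
miR-466i-3p: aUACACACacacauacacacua
miR-467f: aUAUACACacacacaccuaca
miR-467g: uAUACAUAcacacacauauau
miR-466k: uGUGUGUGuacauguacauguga
miR-466j: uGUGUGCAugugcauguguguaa
miR-669n: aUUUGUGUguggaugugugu
miR-467h: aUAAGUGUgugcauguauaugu
No seed was shared between these 8. In miR-466q, miR-466i-3p and miR-467f, AC or CA made up 63.2%, 71.4% and 65.0% of the steps from one base to the next along the strand, against a median of 10.0% over 1738 mature miRNAs of the same table. Only 4 of the 1738 (0.230%) exceeded 50%, so these 3 members were most of them. UG or GU made up 59.1% in miR-466k, 63.6% in miR-466j and 68.4% in miR-669n, against a median of 14.3%, and 8 of the 1738 (0.460%) exceeded 50%.

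The name of the cluster covers most but not all of these rows. By name, 80 of the 81 members were matched to RefSeq genes of GRCm38.p6, and 70 of them lay within Sfmbt2. None of the 70 overlapped an annotated Sfmbt2 exon, and no exon lay between the first and the last of them, so all 70 were in a single intron. The other 10 were on other chromosomes: mir-297a-1, mir-466f-4, mir-466i, mir-466j, mir-466k, mir-466q, mir-467f, mir-467g, mir-467h and mir-669n. All 8 members with a mature sequence above were among these 10. Along the intron the subfamilies alternated, with 11 runs of mir-467, mir-466 and mir-669 in that order. Of 69 neighbouring pairs of members only 13 were of the same subfamily.

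These miRNAs were rare in the retina, whichever the genotype. The deposited values are RPKM, read counts scaled by precursor length and library total, and their steps gave back the whole reads behind each value. Library totals, fitted to these values, ranged from 5480940 to 7478237 reads. The most abundant member, mir-467c, had 49 to 114 reads per library, and the highest member row of a library held 0.000711% to 0.00166% of its reads. Precursors were tested if their mean over the 6 libraries was at least 10 RPKM, and 69 of the 81 members passed this filter. A tested member had a median of 22 reads per library (range 3 to 114), and 38 of the 69 had fewer than 25 reads in every control library. Of the 12 members below the filter, 9 had at most 12 reads in a library. The remaining 3, mir-669i, mir-669j and mir-669k, were listed at 0 in every library, which allows up to 3.16 to 4.52 RPKM (3 reads). Intervals and limits from reads cover counting error only.

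Many rows held identical read numbers. In all 6 libraries, 11 rows of mir-669a had the same number of reads as each other, as did 10 rows of mir-467a and 6 rows of mir-466b. Over the 81 rows there were 52 distinct sets of 6 read numbers, called read profiles below, and the 69 tested rows had 40. Profiles could also differ by a few reads only. The 2 rows mir-466b-8 and mir-466e had 17, 10 and 17 reads in control 1 to 3 and 39, 22 and 14 reads in cKO 1 to 3. The 2 rows mir-466c-1 and mir-466c-2 had 17, 10 and 18 reads in control 1 to 3 and 38, 22 and 16 reads in cKO 1 to 3. Counts of rows below are therefore not counts of separate miRNAs, and counts of read profiles are given beside them.

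The main comparison asked how these miRNAs stood in retina whose rods had lost Dicer1. As deposited, 46 of 69 tested rows rose in cKO retina (66.7%), none fell, and 23 did not pass (limma on log2(RPKM + 1), Benjamini-Hochberg adjusted p below 0.05 over all 461 tested precursors). Over all tested precursors 69.4% rose and 1.74% fell, so by rows the members' share was close to that of the table. No member fell at an unadjusted p below 0.05 either, since all 69 had a positive log2 fold change. In 50 of 69 rows the cKO libraries lay above all control libraries, beside 71.6% of all tested precursors, and in none did they lie below, beside 1.95%. With 1 row per read profile they lay above in 23 of 40 and below in 0, and the matching share over all precursors was not computed. The median log2 fold change was 0.83 for the members and 0.74 for all tested precursors, which are 1.78-fold and 1.67-fold. With each read profile entered once, 20 of 40 rose, beside 67.5% of all 421 precursors tested that way, and their median was 0.82. With median-of-ratios scaling, described below, 0 of these 40 rose, beside 2.38%. In whole retina, a change in the number of cells that make a miRNA and a change in its amount per cell cannot be told apart.

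The number of rows that rose was 22 without control 1, 18 without control 2 and 22 without cKO 1, against 33 to 49 when any other library was left out. These 3 counts are 31.9%, 26.1% and 31.9% of the tested members, beside 60.1%, 55.3% and 62.7% of all tested precursors in the same fits. Rows with the same reads crossed the threshold together. For mir-467a-1, whose reads 9 other rows repeat, adjusted p was 0.025 with all libraries and 0.063 to 0.088 without control 1, control 2, cKO 1 or cKO 3. Only 3 or 4 mir-467 rows rose without each of these 4 libraries, against 15 with all of them. Of all tested precursors 59.4% rose without cKO 3.

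**Figure D1:**
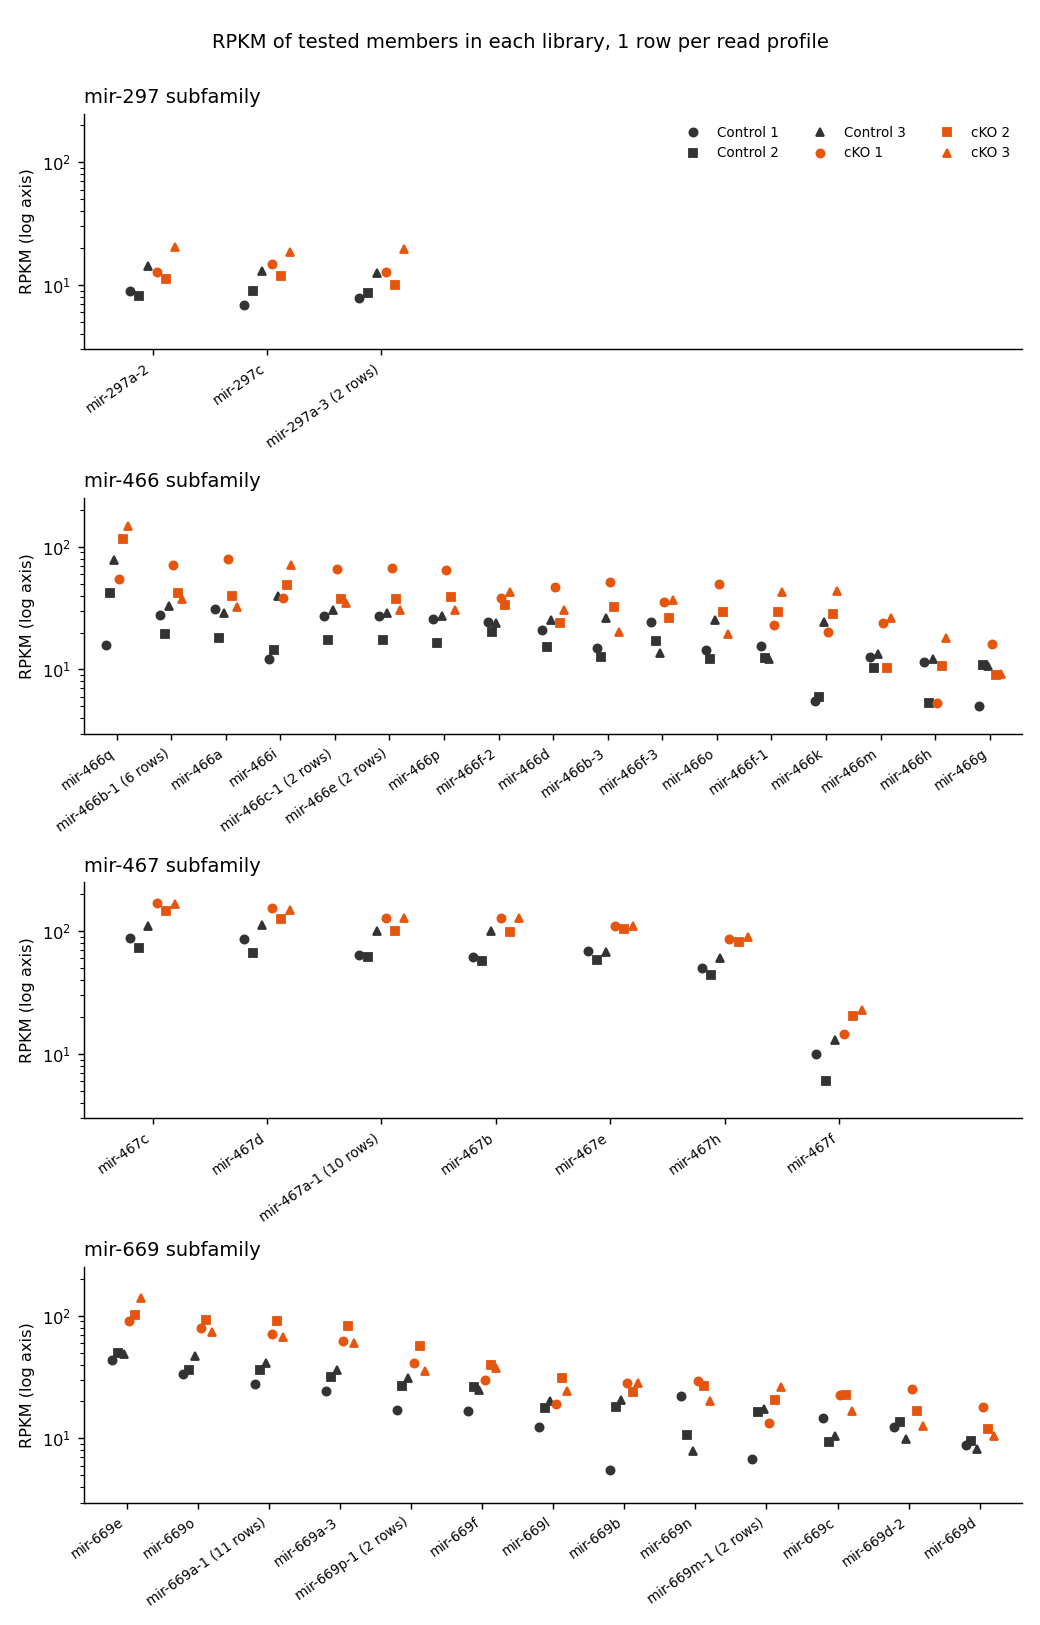
RPKM (log axis) of each tested member in the 3 control libraries (black) and the 3 cKO libraries (orange), by subfamily, with 1 symbol shape per replicate number and 1 column per read profile (number of rows in brackets). The upper mir-669 columns and the mir-467 columns other than mir-467b, where control 3 lies above cKO 2, separate by genotype as deposited, while cKO 1 is highest in mir-466b-1 and the rows with similar reads, and control 3 lies among the cKO libraries in mir-466q, mir-466i and mir-466k.

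Every value here is relative to its library total, and the makeup of that total differed between genotypes. In control retina the photoreceptor miRNAs mir-182, mir-183 and mir-96 summed to 7568210 to 7894240 RPKM, against 4037710 to 4911540 RPKM in cKO retina. Most of this sum was mir-182, whose groups did not overlap. As deposited mir-96 fell (log2 -0.49, limma adjusted p = 0.048) and mir-183 did not pass (log2 -0.11, limma adjusted p = 0.68). In both of these the groups overlapped. Median-of-ratios scaling equalizes libraries at the precursor of typical change. It moved the median log2 fold change of all tested precursors from 0.74 to 0.014. The members' median moved from 0.83 to 0.12. After it no member rose or fell by limma's adjusted p. None had an unadjusted limma p below 0.05, beside 118 of all 461 tested precursors. Limma voom on the recovered reads with the same scaling also called no member. Over all tested precursors 2.17% rose and 9.98% fell with this scaling, and 43 of the 69 members had a positive and 26 a negative log2 fold change. Quantile normalization and library totals without mir-182 reads called no member higher either, beside 2.6% and 4.34% of all tested precursors. Totals without the 10 most abundant precursors called 1 of 69 members higher, beside 12.4% of all.

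A second measure does not use the library total. Within each library the median log2(RPKM + 1) of the tested members was set against that of all tested precursors. The difference was -3.29, -3.81 and -3.25 log2 units in control 1 to 3, and -2.77, -3.57 and -3.60 log2 units in cKO 1 to 3. The means were -3.45 ± 0.31 over the controls and -3.32 ± 0.47 over the cKO libraries (SD, n = 3 each). The groups overlapped, and the difference of 0.13 was smaller than either SD. It changed sign without control 2 (-0.046), without cKO 1 (-0.14) and with a pseudocount of 10 RPKM (-0.031), and grew to 0.21 without control 1, 0.23 without control 3, 0.26 without cKO 2 and 0.27 without cKO 3. With 1 row per read profile the members' difference was 0.085. It was 0.0032 where identical rows of all precursors were also kept once. For the mir-669 rows alone the within-library value was -3.20, -2.96 and -2.86 in control 1 to 3. In cKO 1 to 3 it was -2.65, -2.49 and -2.78, without overlap. In every library the mir-669 median was the value of mir-669a-1, whose reads 11 of the 25 rows share. It thus shows that read profile rather than the subfamily. In the other subfamilies the libraries overlapped, and cKO minus control was -0.26 for mir-297, 0.10 for mir-466 and -0.082 for mir-467.

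**Figure D2:**
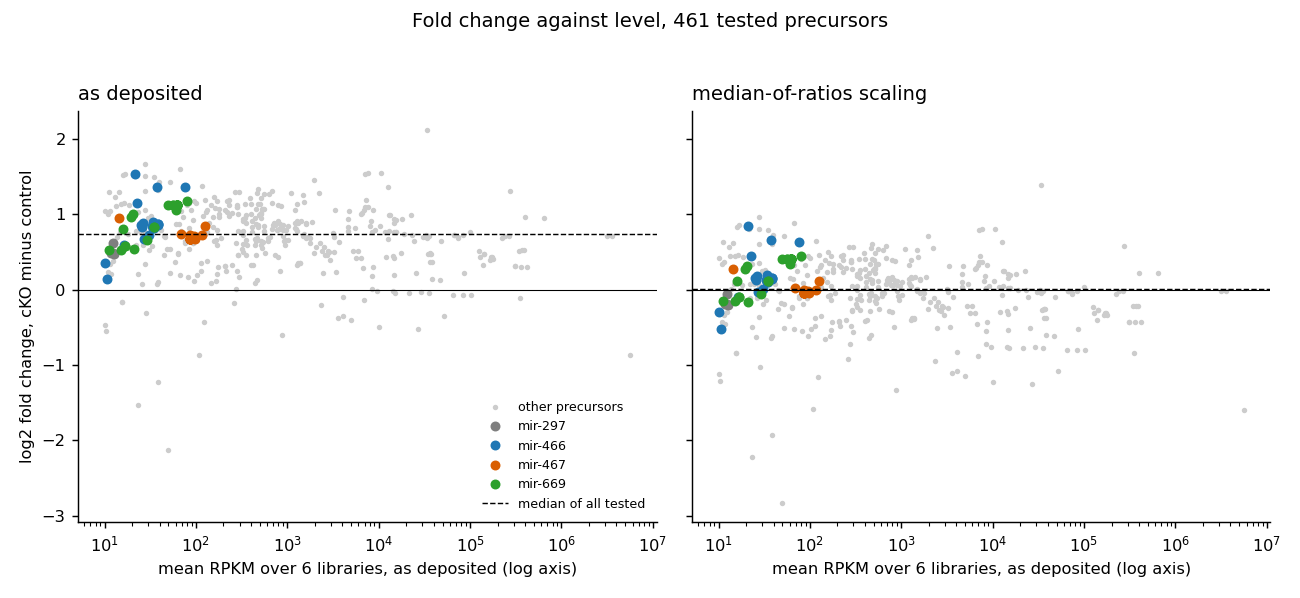
Log2 fold change (cKO minus control) against mean RPKM (log axis) for 461 tested precursors as deposited (left) and with median-of-ratios scaling (right); members are coloured by subfamily and the dashed line is the median of all tested precursors. As deposited all 69 members lie above 0 around the dashed line at 0.74, and after scaling 43 lie above and 26 below 0, with the dashed line at 0.014.

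The mir-467 subfamily held the most abundant members. Of 16 tested rows 15 rose as deposited, beside 69.4% of all tested precursors. Their median log2 fold change was 0.68, below the 0.74 of all tested precursors. The rows that rose are 6 of 7 read profiles, beside 67.5% of all precursors with identical rows kept once. With median-of-ratios scaling the median was -0.050 and none passed. The precursor mir-467c stood at 88.2, 73.3 and 109.5 RPKM in control 1 to 3 and at 170, 148 and 166 RPKM in cKO 1 to 3. All cKO libraries lay above all control libraries, at 1.79-fold (log2 0.84, SE 0.19; limma adjusted p = 0.0036), and it also passed with any single library left out. After median-of-ratios scaling 0.11 remained on the log2 scale (95% interval -0.28 to 0.51; limma adjusted p = 0.79).

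The precursor mir-467d had 86.5, 66.6 and 111.6 RPKM in control 1 to 3 and 156, 126 and 150 RPKM in cKO 1 to 3, again without overlap. It rose 1.66-fold as deposited (log2 0.73, SE 0.22; limma adjusted p = 0.014), stood at -0.0019 with median-of-ratios scaling, and missed the threshold without control 2 (adjusted p = 0.055). The most frequent mir-467 profile, that of mir-467a-1, ran from 61.6 to 100.9 RPKM in the controls and from 101.0 to 128.6 RPKM in the cKO libraries. Control 3 and cKO 2 almost met there. Its log2 fold change was 0.68 as deposited (SE 0.23; limma adjusted p = 0.025) and -0.050 after median-of-ratios scaling (adjusted p = 0.90).

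The precursor mir-467h lies outside Sfmbt2, yet its values ran beside those of mir-467e inside it, a pair picked out after their values were seen. The ratio of mir-467h to mir-467e RPKM averaged 0.79 ± 0.089 over the 3 controls and 0.80 ± 0.016 over the 3 cKO libraries (SD, n = 3 each). Its level was 49.7, 44.4 and 60.9 RPKM in control 1 to 3 and 85.9, 82.5 and 90.5 RPKM in cKO 1 to 3. It rose 1.67-fold as deposited (log2 0.74, SE 0.21; limma adjusted p = 0.0096), and was itself the median of all tested precursors. It stood at 0.016 with median-of-ratios scaling and at -0.052 under quantile normalization. The AC-repeat miR-467f had a far lower row, with 6.04 to 13.0 RPKM in the control libraries and 14.4 to 22.8 RPKM in the cKO libraries. For mir-467f the log2 fold change was 0.95 (SE 0.42; limma adjusted p = 0.061), the mir-467 profile that did not pass. Counts for mir-467g were 1 to 7 reads per library, below the filter.

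Over rows, the mir-669 subfamily had the highest median of the 4, as deposited and with median-of-ratios scaling, but over read profiles mir-466 was higher (0.86 as deposited and 0.15 scaled). Of 25 tested rows 16 rose as deposited (64%, beside 69.4% of all tested precursors), with a median log2 fold change of 1.12 over rows. The rows that rose were 5 of 13 read profiles, since 11 of the rows are the mir-669a profile. This was 38.5% of profiles, beside 67.5% of all precursors with identical rows kept once. The median over the 13 profiles was 0.83. With median-of-ratios scaling the median over rows was 0.40, that over profiles 0.12, and none passed.

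The precursor mir-669e stood at 43.8, 50.0 and 48.8 RPKM in control 1 to 3 and at 89.8, 102 and 140 RPKM in cKO 1 to 3. The 3 control libraries were close together and all cKO libraries lay well above them. Its rise was 2.26-fold (log2 1.18, SE 0.22; limma adjusted p = 0.0013), and over the fits without each library the log2 fold change ran from 1.00 to 1.31 (adjusted p = 0.0015 to 0.0070). After median-of-ratios scaling this log2 fold change was 0.45 (95% interval -0.012 to 0.92; adjusted p = 0.20).

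The mir-669a profile is shown by mir-669a-10, at 30.7, 40.0 and 45.6 RPKM in control 1 to 3 and 79.7, 101 and 75.5 RPKM in cKO 1 to 3. Here cKO 2 was highest, unlike mir-669e, where cKO 3 was. The rise was 2.18-fold (log2 1.13, SE 0.24; limma adjusted p = 0.0022), and after median-of-ratios scaling 0.40 on the log2 scale (adjusted p = 0.24). The precursor mir-669o, with 33.4, 36.3 and 47.2 RPKM in control 1 to 3 and 79.7, 91.9 and 74.1 RPKM in cKO 1 to 3, followed it at a ratio of 0.906 to 1.09 in the 6 libraries. It rose 2.09-fold (limma adjusted p = 0.0024) and stood at 0.34 with median-of-ratios scaling.

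After median-of-ratios scaling the cKO libraries still lay above all control libraries in 14 rows, all of mir-669: mir-669e, mir-669o and the 12 rows of mir-669a. This was 14 of 69 tested member rows, beside 15.0% of all tested precursors. It was only 4 of 40 read profiles, for which the matching share over all precursors was not computed. No member lay below all control libraries, beside 20.0% of all. The lower members of the subfamily, mir-669b, mir-669c, mir-669d, mir-669d-2, mir-669f, mir-669l, mir-669m-1, mir-669m-2 and mir-669n, had means of 11.2 to 29.1 RPKM and none passed as deposited.

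The mir-466 subfamily held rows with unlike patterns over the libraries. Of 24 tested rows 15 rose as deposited (62.5%, beside 69.4% of all tested precursors), with a median log2 fold change of 0.86. The rows that rose were 9 of 17 read profiles (52.9%, beside 67.5% of all precursors with identical rows kept once). Only 1 row rose without control 2, 3 without control 1, 4 without cKO 1 and 4 without cKO 2. Over all tested precursors these fits gave 55.3%, 60.1%, 62.7% and 54.7%. With no filter on low values 7 of 28 mir-466 rows rose, beside 48.8% of all. These are counts of rows, and 6 rows hold the mir-466b-1 profile. The median was 0.15 with median-of-ratios scaling, and no row passed. As deposited the values ran from 0.14 for mir-466h, with 3 to 8 reads per library, to 1.53 for mir-466k.

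Several copies shared a high cKO 1. The precursor mir-466b-1 stood at 27.7, 19.5 and 32.8 RPKM in control 1 to 3 and at 70.4, 42.3 and 37.8 RPKM in cKO 1 to 3. The groups did not overlap, but cKO 2 and cKO 3 lay near control 3. In cKO 1 the 40 reads gave 70.4 RPKM with an exact Poisson 95% interval of 50.3 to 95.9 RPKM, and in cKO 3 the 17 reads gave 37.8 RPKM with an interval of 22.0 to 60.6 RPKM. The rise was 1.82-fold (log2 0.87, SE 0.32; limma adjusted p = 0.033). It missed the threshold without control 1 (adjusted p = 0.061), without control 2 (0.12) and without cKO 1 (0.12), where the log2 fold change was 0.60.

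The precursor mir-466a, at 31.1, 17.9 and 29.1 RPKM in control 1 to 3 and 79.1, 39.6 and 32.5 RPKM in cKO 1 to 3, had almost the same fold change. It did not pass, with 0.86 on the log2 scale (SE 0.37; limma adjusted p = 0.058), although its read numbers were close to those of mir-466b-1. It did pass without cKO 3 (adjusted p = 0.033), with the replicate number as a block (0.026), with robust eBayes (0.049) and with array weights (0.047). With median-of-ratios scaling mir-466b-1 and mir-466a both stood at 0.15. The ratio of mir-466b-1 to mir-467c RPKM was 0.314, 0.266 and 0.300 in control 1 to 3 and 0.415, 0.287 and 0.229 in cKO 1 to 3. The cKO values lay on both sides of the controls.

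The AC-repeat miRNA miR-466q had another pattern. Its row stood at 15.8, 42.0 and 78.3 RPKM in control 1 to 3 and at 55.1, 116 and 146 RPKM in cKO 1 to 3. Control 3 exceeded cKO 1, so the groups overlapped. The controls differed by more than counting error: control 1 had 9 reads with an exact Poisson 95% interval of 4.12 to 17.1 reads, and control 3 had 42 reads with an interval of 30.3 to 56.8. The log2 fold change was 1.36 (SE 0.52; limma adjusted p = 0.039) as deposited and 0.64 (adjusted p = 0.46) after median-of-ratios scaling. As deposited it was 0.76 without control 1 (adjusted p = 0.15), and the threshold was also missed on leaving out control 2, cKO 2 or cKO 3 (limma adjusted p = 0.065 to 0.12). It was missed as well with robust eBayes (limma adjusted p = 0.105) and with eBayes without trend (0.078). The call held with array weights (limma adjusted p = 0.0085) and with the replicate number as a block (0.00088).

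The same order of libraries was seen in mir-466i and mir-466k, which likewise lie outside Sfmbt2 and were picked out after their values were seen. The precursor mir-466i stood at 12.2, 14.4 and 39.8 RPKM in control 1 to 3 and at 38.2, 49.0 and 70.9 RPKM in cKO 1 to 3. The precursor mir-466k stood at 5.48, 5.94 and 24.4 RPKM in control 1 to 3 and at 20.1, 28.5 and 43.4 RPKM in cKO 1 to 3. In both, control 3 exceeded cKO 1 and cKO 3 was highest. Both rose as deposited, mir-466i by 1.36 (SE 0.44; limma adjusted p = 0.019) and mir-466k by 1.53 (SE 0.55; adjusted p = 0.030) on the log2 scale, and both missed the threshold on leaving out any of control 1, control 2 and cKO 3 (limma adjusted p = 0.067 to 0.10). For mir-466k the same held on leaving out cKO 2 (0.053). After median-of-ratios scaling the values were 0.66 and 0.85 (adjusted p = 0.31 each).

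Of the 3 lens and cornea markers, mir-184 and mir-31 were likewise highest in control 3 among the controls, while mir-205 was highest in control 2, and all 3 were lowest in cKO 1 among the cKO libraries. The RPKM of mir-184, mir-31 and mir-205 summed to 10287, 2499 and 54376 in control 1 to 3 and to 25397, 60760 and 63458 in cKO 1 to 3, with 0 of 3 passing the test and none at 0. Most of this sum was mir-184. Unlike mir-466q, mir-466i and mir-466k, mir-184 and mir-31 were lowest in control 2 among the controls. The pigment epithelium markers mir-204 and mir-211 and the red cell marker mir-451a increased from replicate 1 to 3 within each genotype, as mir-466q, mir-466i and mir-466k did. In mir-204, mir-211 and mir-451a all cKO libraries lay above all control libraries. The red cell markers mir-144 and mir-486 did not keep that order. The part of these tissues in the values of mir-466q, mir-466i and mir-466k was not tested. By contrast the ratio of mir-466a to mir-466q ran from 0.222 to 1.97 over the 6 libraries. It was highest in control 1 and cKO 1, so these 2 rows did not keep to 1 ratio.

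**Figure D3:**
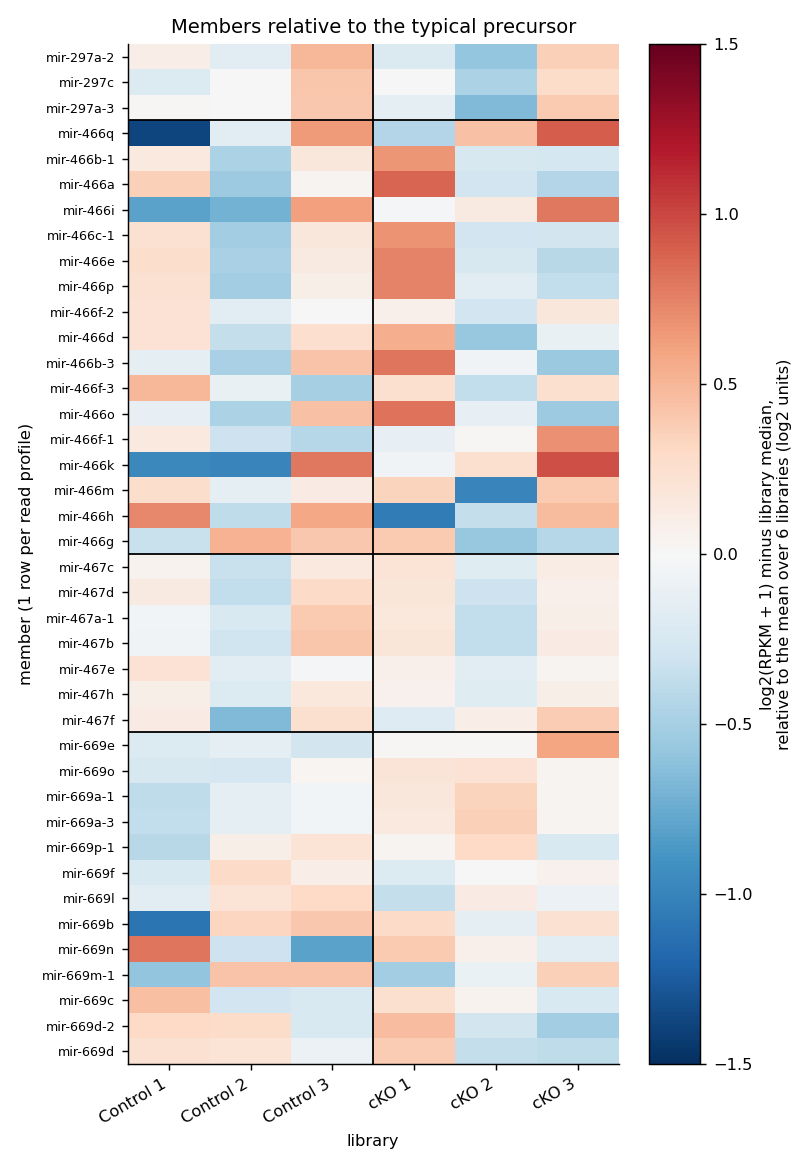
Log2(RPKM + 1) of each tested member (1 row per read profile) minus the library's median over all tested precursors, shown relative to the member's mean over the 6 libraries; red is higher and blue lower, in log2 units. The copies around mir-466b-1 are red in cKO 1 alone among the cKO libraries, mir-466q, mir-466i and mir-466k are reddest in control 3 and cKO 3, and the mir-467 rows other than mir-467f are pale throughout.

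The mir-297 subfamily had few reads. Its 4 tested rows, of 6 in all, had means of 11.9 to 12.6 RPKM, none passed in either direction, and none had an unadjusted p below 0.05. The precursor mir-297c stood at 6.82, 8.88 and 13.0 RPKM in control 1 to 3, from 5, 6 and 9 reads, and at 14.7, 11.8 and 18.6 RPKM in cKO 1 to 3, from 10, 8 and 10 reads. The groups overlapped. Its log2 fold change was 0.62 with a 95% interval of -0.31 to 1.56 (limma adjusted p = 0.20), and the sign turned with median-of-ratios scaling, at -0.052. For mir-297a-2 and mir-297a-4 the values were 0.47 and 0.48 (adjusted p = 0.33 and 0.32) as deposited and -0.21 and -0.19 after scaling.

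Rows within and outside the host gene were also set side by side. Of the 62 tested rows within Sfmbt2, which hold 33 read profiles, 42 rose as deposited (67.7%), with a median log2 fold change of 0.83. Of 6 tested rows on other chromosomes 4 rose (66.7%), with a median of 1.16. Over all tested precursors 69.4% rose, with a median of 0.74. With median-of-ratios scaling the medians within Sfmbt2 and on other chromosomes were 0.11 and 0.46, and no row of either set passed. The difference between the 2 sets was not tested, and 3 of the 6 rows outside the gene were mir-466q, mir-466i and mir-466k, whose control libraries spread widely. Along the intron the repeated mir-669a and mir-467a rows alternated, as plotted along the gene, but each is a read profile listed many times. The subfamilies overlapped there, with log2 fold changes of 0.14 to 1.15 in mir-466, 0.68 to 0.84 in mir-467 and 0.52 to 1.18 in mir-669, and their difference was not tested.

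**Figure D4:**
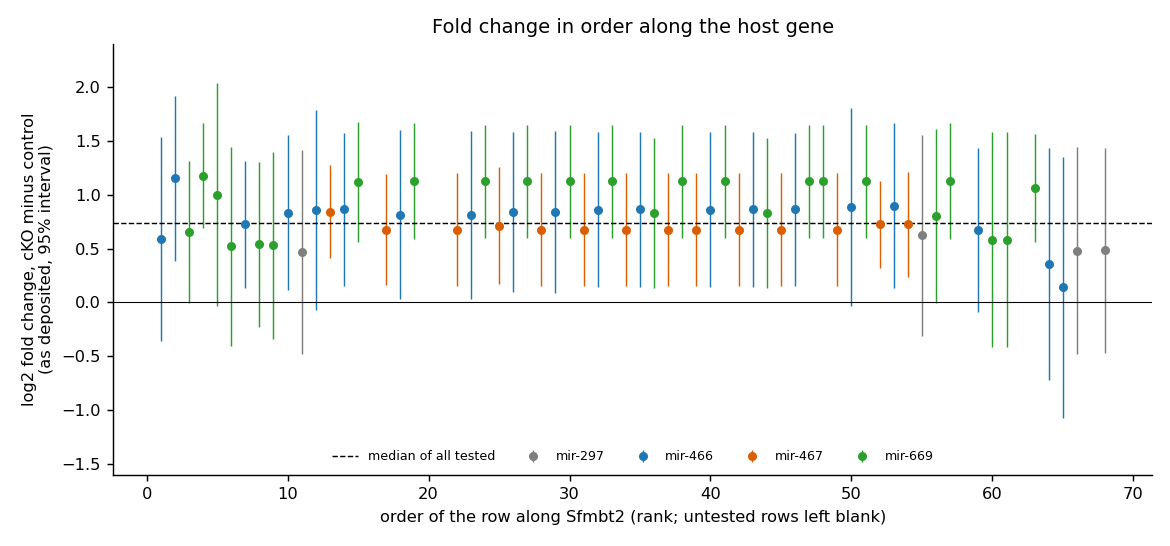
Log2 fold change (cKO minus control, as deposited) with its 95% interval for each tested row within Sfmbt2, in the order of the rows along the gene (rank, not distance); colours are subfamilies and the dashed line is the median of all tested precursors at 0.74. The repeated mir-669a rows lie at 1.12 to 1.13, above the dashed line, and the repeated mir-467a rows at 0.68, below it; with median-of-ratios scaling mir-669a stood at 0.40 and mir-467a at -0.050.

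Outside the named family, 3 precursors of the table were also looked at. Seeds could be compared only for the members with a mature sequence above, none of them within Sfmbt2, and this gave mir-668. The precursors mir-574 and mir-1187 were listed by name for their UG repeats, and the table was not searched for other such repeats. The precursor mir-574, whose 5p strand is a UG repeat, stood at 75.4, 94.8 and 111 RPKM in control 1 to 3 and at 174, 224 and 264 RPKM in cKO 1 to 3. The groups did not overlap, and its log2 fold change was 1.23 (SE 0.21; limma adjusted p = 0.0010) as deposited and 0.50 after median-of-ratios scaling (adjusted p = 0.13). The precursor mir-668, an imprinted miRNA whose 5p strand shares the seed of miR-467h, was far more abundant, with 817.5 to 1122 RPKM in the controls and 1490 to 1927 RPKM in the cKO libraries. It rose by 0.89 on the log2 scale (limma adjusted p = 0.0015) and stood at 0.15 after scaling. The UG-repeat precursor mir-1187 had at most 1.16 RPKM in a control library and 4.74 to 12.0 RPKM in cKO libraries, below the filter. So 2 of the 2 tested rose as deposited, and none passed with median-of-ratios scaling. The sequences of these strands, with the seed in capitals, show how close they come to the members:
miR-574-5p: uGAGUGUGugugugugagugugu
miR-668-5p: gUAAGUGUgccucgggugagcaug
miR-1187: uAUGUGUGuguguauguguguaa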

How the data were processed

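Small RNA libraries of 3 control and 3 cKO retina pools were used, grouped by the genotype in their labels. The authors deposited RPKM values per miRNA precursor, and Bowtie and the mouse build mm9 are named per the submitters' processing notes. How reads that fit several precursors were counted is stated neither in the labels nor in the file. Library totals were fitted to the RPKM values, so that RPKM times precursor length and total gave whole reads. With the fitted totals this held for 100.0% of 4968 values (within 0.01 reads). Values of 0, which are whole under any total, are among these. Precursor names were matched to RefSeq GRCm38.p6 for 828 of 855 rows, for lengths, host gene and order only. The length of mir-466a, which had no match, was inferred from its values.

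Precursors averaging at least 10 RPKM over the 6 libraries were tested with limma 3.58.1 (trend) in R 4.3.3 on log2(RPKM + 1), two-sided, with Benjamini-Hochberg adjustment over all 461 tested rows and a threshold of 0.05. Folds are on this scale, which understates changes of low rows. Scripts were tested on simulated data. Members named were the 3 of highest mean in each subfamily (identical rows once) and members of at least 100 RPKM. Relatives were mir-668, found by its seed, and mir-574 and mir-1187, listed by name. Others are marked where they appear. Alternatives were scaling, pseudocount, filter, count model, shared reads, replicate block and leaving out each library. Members and lists were chosen with earlier results of these data known. Dicer1 mRNA was not analysed here.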

Additional observations from a re-analysis of the deposited data

How the results depend on the processing

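The 46 members that rose as deposited became 20 of 40 where rows with identical reads were kept once (50%, beside 67.5% of all tested precursors), 36 of 78 with no filter on low values (46.2%, beside 48.8%), and 2 where a mean of at least 100 RPKM was required, a filter that only 2 members pass (76.8% of all rose there). They became 0 with median-of-ratios scaling, quantile normalization, library totals without mir-182 reads, voom with median-of-ratios scaling, and identical rows kept once with median-of-ratios scaling (an alternative chosen after seeing the data), and 1 with totals without the 10 most abundant precursors. Over all tested precursors these 6 settings gave 2.17%, 2.6%, 4.34%, 1.95%, 2.38% and 12.4%, in that order. Leaving out each library gave 18 to 49, or 26.1% to 71%, beside 54.7% to 69.8% of all. No alternative called a member lower. The median log2 fold change of 0.83 became 0.12 with median-of-ratios scaling, 0.097 with quantile normalization, 0.34 with totals without the 10 most abundant precursors, 0.23 without mir-182 reads, 0.11 with voom and median-of-ratios scaling and 0.11 with identical rows kept once and median-of-ratios scaling. Of the 2 related precursors that rose, 1 was called with totals without the 10 most abundant precursors and 0 with each of the other 5 scalings just named. Signs turned under median-of-ratios scaling for mir-297a-2 (-0.21), mir-297a-4 (-0.19), mir-297c (-0.052), mir-467a-1 (-0.050) and mir-467d (-0.0019). Except for mir-297a-4, which has no value there, these held with identical rows kept once. Under quantile normalization mir-297a-2 stood at -0.24, mir-297a-4 at -0.22, mir-297c at -0.086, mir-467a-1 at -0.091 and mir-467h at -0.052. Under voom with median-of-ratios scaling mir-297a-2 stood at -0.29, mir-297a-4 at -0.27, mir-297c at -0.12, mir-467a-1 at -0.076 and mir-467d at -0.021. Without mir-182 reads mir-297a-2 stood at -0.11 and mir-297a-4 at -0.096, and with totals without the 10 most abundant precursors mir-297a-2 stood at -0.0022. The cause of these differences was not tested. Over 15 named members, 225 of 328 comparisons with an alternative kept direction and call, 77 lost the call, 4 gained it and 22 changed sign. Same-numbered libraries of the 2 genotypes had correlations of 0.19, 0.26 and 0.0093 in their deviations from the group means. Libraries of unlike number had -0.22 to 0.048, so 0.19 and 0.26 were the highest. Whether the numbers pair samples is not stated in the labels, and these values do not settle it. The main tests did not use the numbers. With the replicate number as a block, 50 members rose (72.5%, beside 73.3% of all tested precursors). None fell, beside 10 of all 461. Joining rows by shared mature sequence joined no member row, so it bears on no member count, and its values among the 225 show no stability. Rows held few reads.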
